A study of Saccharomyces cerevisiae with 4 samples.

Results

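Glutathione genes of budding yeast were followed through a treatment with thiolutin, an inhibitor of yeast RNA polymerases. They were 10 genes, listed by name and identifier with earlier results of these data known, of the 7071 genes in the deposited tables. They comprised the synthesis and reduction enzymes GSH1, GSH2 and GLR1, the glutaredoxins GRX1 and GRX2, the peroxidases GPX1, GPX2 and HYR1, and the transferases GTT1 and GTT2. Total RNA was sequenced in 4 libraries from the wild-type (WT) strain CB67, which is of W303 origin. In both groups, logarithmically growing cells in YEPD had been held in G2/M by benomyl, an inhibitor of microtubules (80 μg/ml for 90 min), so that growing cells without arrest were not measured. The thiolutin-treated group (20 μg/ml, 30 min) had 2 libraries, and the DMSO group, given the solvent alone, had 2 libraries. In each group they carry the replicate letters a and b. No source used here says that a and b were separate cultures, so p-values measure only the spread between these libraries, which may be technical. A pellet of S. pombe cells had been mixed with each pellet as a spike-in before extraction, and its reads were not used here.

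Glutathione, a tripeptide of glutamate, cysteine and glycine, is the most abundant low-molecular-weight thiol of yeast. Gsh1 joins glutamate to cysteine and Gsh2 adds glycine. Glutaredoxins use it to reduce disulfides, peroxidases reduce hydroperoxides, and transferases couple it to reactive compounds. Oxidized glutathione is returned to the reduced form by Glr1 with NADPH. Hyr1, also called Gpx3, additionally senses hydroperoxide and can pass the signal to the transcription factor Yap1.

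Total expected counts, which are estimated read numbers per gene, ranged from 11598766 to 38613462 in the thiolutin libraries and from 27262771 to 48045781 in the DMSO libraries. Protein-coding genes took 6.56% and 8.12% of them with thiolutin, against 11.8% and 11.2% with DMSO. Levels between libraries were therefore compared with TMM normalization, under which most genes are taken as unchanged, and values are given as TMM-normalized CPM, the counts of a gene scaled to a library of fixed size. On this scale the median log2 fold change of the 5527 genes tested was -0.02. When counts were instead divided by the library totals, most of which lay on rRNA, this median moved to -0.99. A change with TMM is thus a change relative to other genes. The number of cells and the amount of RNA per cell cannot be read from such libraries. Among the markers of the arrest, CLB1, CLB2, CDC5 and CDC20, which are expressed towards mitosis, had deposited TPM values between 0.10 and 0.34 with thiolutin and between 0.51 and 1.76 with DMSO. The G1 cyclin genes CLN1 and CLN2 lay at 0.05 TPM or below in every library. Of the S-phase cyclin genes, CLB5 had 0.11 and 0.10 TPM with thiolutin and 0.53 and 0.40 TPM with DMSO, and CLB6 at most 0.02 TPM. Relative to other genes (TMM), CLB2, CLB1, CDC5 and CLB5 fell with thiolutin, with log2 fold changes of -2.13, -1.43, -1.07 and -1.07 (adjusted p = 4.74e-05, 3.14e-04, 0.00185 and 0.0132, edgeR). CDC20 at -0.15, CLN1 at 0.07 and CLN2 at 0.70 were not called (adjusted p = 0.563, 0.935 and 0.277, edgeR), and CLB6 did not pass the filter on low counts. The part of the cell cycle position in the results was not tested.

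With thiolutin, GPX2 rose about 12-fold relative to other genes, GLR1 about 2-fold, and GSH1 and HYR1 by a factor of 1.73 and 1.72 (log2 fold changes 3.63, 1.03, 0.79 and 0.78). These were 4 of the 10 glutathione genes called at 0.05 (Benjamini-Hochberg adjusted p, quasi-likelihood F-test of edgeR), against 18.5% of all genes tested. Without DMSO replicate a, 2 were called, GPX2 and GLR1, and the share of all genes called higher was then 6.95%. None of the 10 was called lower, with 0 by edgeR (17.6% of all genes) and 0 by DESeq2 (10.2% of all genes). At an unadjusted p under 0.05 in edgeR 0 were lower, against 1261 of the 5527 genes tested. At the threshold of 1e-05 used in the study, GPX2 alone was called by the quasi-likelihood test (0.796% of all genes were called higher). GLR1 also lay under it with the likelihood ratio test of edgeR (adjusted p = 8.5e-08) and with DESeq2 (adjusted p = 1.04e-06). The share of all genes under it in those tests was not counted. The median log2 fold change of the 10 genes was 0.52. When counts were divided by library totals, GPX2 was the only gene of the 10 called higher (2.08% of all genes), while GSH2, GRX1 and GPX1 were called lower (65.9% of all genes), and GSH1 and HYR1 turned to values just below 0. Scaled to the counts of the 5.8S rRNA genes, GPX2 was called higher (1.61% of all genes) and GPX1 lower (48.5% of all genes). GPX1 passed the filter on low counts through the DMSO libraries alone, so its lower calls are no support for these counts.

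**Figure D1:**
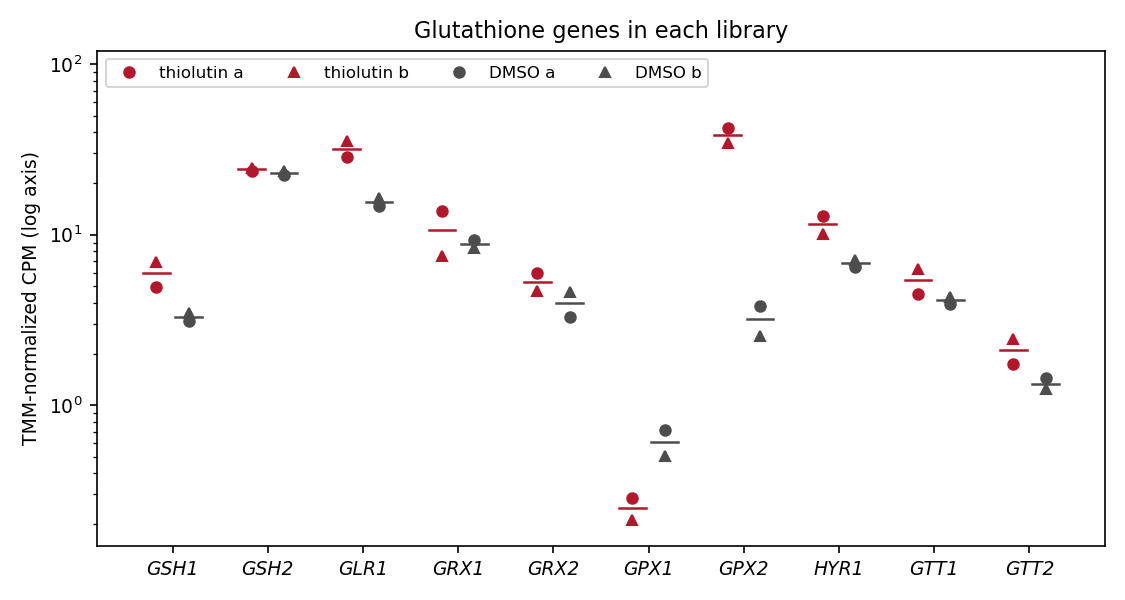
TMM-normalized CPM of each of the 10 glutathione genes on a log axis, with thiolutin libraries in red to the left and DMSO libraries in grey to the right; circles are replicate a, triangles replicate b and lines the group mean. GPX2 lies at 42.3 and 34.6 CPM with thiolutin and at 3.82 and 2.55 CPM with DMSO, whereas the libraries of GRX1 overlap between the groups.

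The promoters of the 4 genes that rose relative to other genes, and of GRX2, are shown because they differ in the motifs they hold. Each is the stretch from 250 bases before to 50 bases after the annotated start of the gene (its start codon in this assembly), read from the RefSeq R64 genome in the direction of the gene. Capitals mark TTACTAA or TTAGTAA (the Yap1 motif), AGGGG or CCCCT (the stress response element bound by Msn2 and Msn4), CACGTG (bound by Cbf1, which recruits Met4) and the heat shock element of Hsf1 (TTC, GAA and TTC in turn, with 2 bases between them), each searched on both strands.
GPX2 (chrII:707278-707577, plus strand): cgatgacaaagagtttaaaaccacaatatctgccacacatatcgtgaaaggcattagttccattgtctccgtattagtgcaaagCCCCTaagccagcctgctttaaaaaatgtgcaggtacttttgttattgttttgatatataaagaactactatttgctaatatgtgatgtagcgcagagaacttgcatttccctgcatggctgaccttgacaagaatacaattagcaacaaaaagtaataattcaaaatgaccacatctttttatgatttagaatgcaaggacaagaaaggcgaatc
GLR1 (chrXVI:375252-375551, plus strand): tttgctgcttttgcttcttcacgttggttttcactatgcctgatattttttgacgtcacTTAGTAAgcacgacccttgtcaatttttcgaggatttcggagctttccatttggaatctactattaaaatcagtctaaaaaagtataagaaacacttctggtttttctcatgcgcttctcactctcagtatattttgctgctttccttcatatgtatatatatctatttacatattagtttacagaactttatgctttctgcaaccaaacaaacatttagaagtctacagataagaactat
GSH1 (chrX:236307-236606, minus strand): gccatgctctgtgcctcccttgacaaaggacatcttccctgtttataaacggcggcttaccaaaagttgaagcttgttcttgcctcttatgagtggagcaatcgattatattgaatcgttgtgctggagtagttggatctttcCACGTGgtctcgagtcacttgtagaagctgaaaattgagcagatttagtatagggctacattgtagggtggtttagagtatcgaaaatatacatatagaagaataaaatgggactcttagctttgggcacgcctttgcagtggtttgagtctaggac
HYR1 (chrIX:422878-423177, plus strand): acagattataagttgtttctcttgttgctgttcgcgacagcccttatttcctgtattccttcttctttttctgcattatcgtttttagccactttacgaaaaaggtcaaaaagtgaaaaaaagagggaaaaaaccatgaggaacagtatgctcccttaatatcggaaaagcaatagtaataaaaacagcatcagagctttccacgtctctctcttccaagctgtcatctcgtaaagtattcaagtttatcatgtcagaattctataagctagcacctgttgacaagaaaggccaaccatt
GRX2 (chrIV:1470767-1471066, plus strand): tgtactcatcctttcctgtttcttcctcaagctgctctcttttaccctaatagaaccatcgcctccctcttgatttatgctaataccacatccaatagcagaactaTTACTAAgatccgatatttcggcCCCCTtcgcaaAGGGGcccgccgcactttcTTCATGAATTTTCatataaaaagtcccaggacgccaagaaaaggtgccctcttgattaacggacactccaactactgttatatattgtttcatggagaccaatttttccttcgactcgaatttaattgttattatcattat

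The 4 genes that rose had no motif of the search in common. GPX2 held 1 stress response element 166 bases before its start, GLR1 held the Yap1 motif 191 bases before, GSH1 held CACGTG 107 bases before, and the window of HYR1 held none of the 4 motifs. GRX2, which was not called, held the Yap1 motif, 2 stress response elements and 1 heat shock element. The 2 stress response elements of GRX2 begin 121 and 110 bases before its start and do not overlap. Of the 10 windows, 4 held the Yap1 motif (GLR1, GRX2, GTT1 and GTT2), against 7.45% of 6001 promoters of the same length. Of these 4 genes, GLR1 was called higher. The stress response element was in 5 of the 10 windows (GRX1, GRX2, GPX1, GPX2 and GTT1), against 21.6% of promoters. CACGTG was in 2 (GSH1 and GRX1), against 2.92%, and the heat shock element in 2 (GSH2 and GRX2), against 0.783%. These matches describe letters in the windows and are not evidence of binding.

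GPX2 (YBR244W) lies on the plus strand of chromosome II from 707528 to 708016 (R64 assembly) and encodes a phospholipid hydroperoxide glutathione peroxidase. It had 1040 and 325 expected counts in thiolutin libraries a and b, against 149 and 166 in DMSO libraries a and b, although the DMSO libraries held more reads on protein-coding genes. Its level was 42.3 and 34.6 CPM with thiolutin and 3.82 and 2.55 CPM with DMSO. The groups were thus far apart, and the means were 38.5 ± 5.51 CPM (SD, n = 2) with thiolutin and 3.19 ± 0.898 CPM (SD, n = 2) with DMSO. The log2 fold change of GPX2 was 3.63 ± 0.21 (SE; adjusted p = 6.14e-07, edgeR), and it ranked 23 among 5527 genes. It remained between 3.33 and 3.92 with 1 library left out in turn. Scaled to library totals it was 2.64 (adjusted p = 4.91e-08, edgeR), and scaled to the counts of the 5.8S rRNA genes it was 2.67 (adjusted p = 5.73e-08, edgeR). GPX2 was the only 1 of the 10 that was called higher on each of these scales.

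Of the other peroxidase genes, HYR1 was called higher and GPX1 was not called. HYR1 (YIR037W, chromosome IX, plus strand, 423128 to 423619) had 12.9 and 10.1 CPM with thiolutin, against 6.44 and 7.13 CPM with DMSO. Both thiolutin libraries lay above both DMSO libraries, and the log2 fold change was 0.78 ± 0.17 (SE, adjusted p = 0.00454, edgeR). Without DMSO replicate a, it was 0.71 and no longer called (adjusted p = 0.0916, edgeR). With library totals it was -0.20 (adjusted p = 0.47, edgeR), so that its rise holds relative to other genes only. GPX1 (YKL026C, chromosome XI, minus strand, 389380 to 389883), the paralog of HYR1 from the whole genome duplication, was scarce in every library. It had 7 and 2 expected counts with thiolutin and 28 and 33 with DMSO, which is 0.285 and 0.213 CPM against 0.718 and 0.507 CPM. GPX1 passed the filter on low counts through the DMSO libraries alone. Its thiolutin libraries lay below its DMSO libraries, but the log2 fold change of -1.19 had a standard error of 0.56 and was not called (adjusted p = 0.119, edgeR). With library totals it was -2.21 and called lower (adjusted p = 0.00243, edgeR).

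The ratio of 2 genes within a library does not depend on how libraries are scaled to each other. GPX2 over HYR1 was 3.30 and 3.45 in deposited TPM with thiolutin, and 0.597 and 0.362 with DMSO. HYR1 was thus the more abundant of this pair with DMSO, and GPX2 with thiolutin. The mean log2 ratio differed by 2.86, with SDs of 0.044 with thiolutin and 0.51 with DMSO (n = 2 each). GPX2 over GPX1 was 149 and 163 in expected counts with thiolutin and 5.32 and 5.03 with DMSO, where the thiolutin values rest on the few counts of GPX1. Of the 5 ratios computed, 4 did not overlap between the groups. Each of these had p = 0.33 in an exact permutation test (two-sided), and 2 libraries against 2 can give no smaller value.

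**Figure D2:**
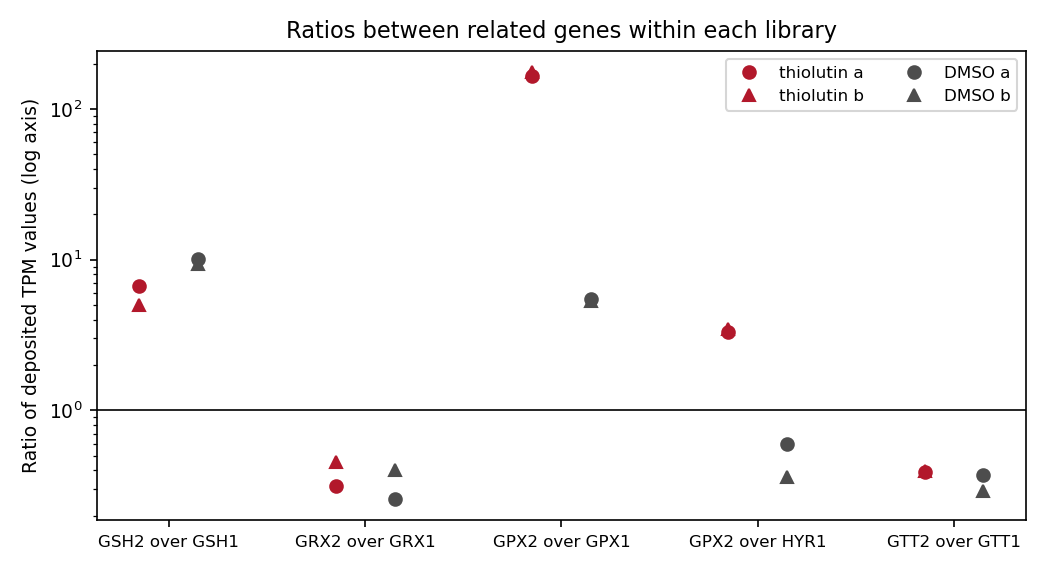
Ratios of deposited TPM between related genes within each library, on a log axis, with thiolutin libraries in red on the left and DMSO libraries in grey on the right of each pair; circles are replicate a and triangles replicate b. GPX2 over HYR1 lies above 1 with thiolutin (3.30 and 3.45) and below 1 with DMSO (0.597 and 0.362), and GRX2 over GRX1 overlaps between the groups.

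Of the enzymes of synthesis and reduction, GLR1 and GSH1 rose relative to other genes and GSH2 was not called. GLR1 (YPL091W, chromosome XVI, plus strand, 375502 to 376953), the glutathione reductase, had 28.4 and 35.6 CPM with thiolutin, against 14.8 and 16.3 CPM with DMSO. The means were 32.0 ± 5.09 CPM (SD, n = 2) and 15.5 ± 1.09 CPM (SD, n = 2). Both thiolutin libraries lay above both DMSO libraries, with a log2 fold change of 1.03 ± 0.16 (SE, adjusted p = 7.33e-04, edgeR). It was called in each fit that left out 1 library, with values between 0.85 and 1.19. With library totals the value was 0.10 (adjusted p = 0.718, edgeR), so that GLR1 stayed near the DMSO level while the median gene lay at -0.99.

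GSH1 (YJL101C, chromosome X, minus strand, 234320 to 236356) encodes gamma-glutamylcysteine synthetase, the first enzyme of the pathway. It had 4.97 and 6.91 CPM with thiolutin, against 3.10 and 3.49 CPM with DMSO. The groups did not overlap, and the log2 fold change was 0.79 ± 0.21 (SE, adjusted p = 0.0125, edgeR). The call was lost without DMSO replicate a (0.74, adjusted p = 0.128, edgeR) and without DMSO replicate b (0.91, adjusted p = 0.0585, edgeR). With library totals GSH1 was at -0.14 (adjusted p = 0.669, edgeR).

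GSH2 (YOL049W, chromosome XV, plus strand, 238619 to 240094), the glutathione synthetase that completes the tripeptide, followed the typical gene. Its 23.7 and 24.7 CPM with thiolutin lay just above the 22.5 and 23.6 CPM with DMSO. The log2 fold change was 0.06 ± 0.14 (SE, adjusted p = 0.75, edgeR). With library totals GSH2 was called lower at -0.88 (adjusted p = 0.00323, edgeR), close to the median of all genes on that scale. GSH2 over GSH1 was 6.67 and 5.02 in TPM with thiolutin, against 10.1 and 9.33 with DMSO. These ratios did not overlap, with a difference of -0.75 in the mean log2 ratio and SDs of 0.29 and 0.08 (n = 2 each), but a difference between the genes was not shown at this number of libraries (exact permutation p = 0.33).

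Neither glutaredoxin gene was called. GRX1 (YCL035C, chromosome III, minus strand, 60841 to 61173) had 13.8 and 7.55 CPM with thiolutin and 9.31 and 8.36 CPM with DMSO, so that the DMSO libraries lay between the thiolutin libraries. Its log2 fold change was 0.34 ± 0.22 (SE, adjusted p = 0.261, edgeR), and the sign rested on 1 library. It was -0.22 without thiolutin replicate a (adjusted p = 0.411, edgeR), and 0.63 and called without thiolutin replicate b (adjusted p = 1.4e-04, edgeR). GRX2 (YDR513W, chromosome IV, plus strand, 1471017 to 1471448), the paralog that also gives a mitochondrial form, had 5.95 and 4.68 CPM with thiolutin and 3.28 and 4.62 CPM with DMSO. Its log2 fold change was 0.45 ± 0.22 (SE, adjusted p = 0.136, edgeR), and it was called only without thiolutin replicate b (0.54, adjusted p = 0.0129, edgeR). With library totals GRX1 was called lower at -0.69 (adjusted p = 0.0218, edgeR), and GRX2 was at -0.54 (adjusted p = 0.0739, edgeR). GRX2 over GRX1 was 0.315 and 0.453 in TPM with thiolutin and 0.258 and 0.404 with DMSO, and overlapped between the groups (exact permutation p = 0.67).

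The transferase genes also did not pass the test. GTT1 (YIR038C, chromosome IX, minus strand, 423809 to 424513), which encodes a transferase of the endoplasmic reticulum, had 4.52 and 6.27 CPM with thiolutin, against 3.92 and 4.32 CPM with DMSO. Its log2 fold change was 0.33 ± 0.20 (SE, adjusted p = 0.227, edgeR), and it was called only without thiolutin replicate a (0.60, adjusted p = 0.0343, edgeR). GTT2 (YLL060C, chromosome XII, minus strand, 21138 to 21839) had 1.75 and 2.45 CPM with thiolutin and 1.44 and 1.24 CPM with DMSO. Its log2 fold change was 0.59 ± 0.30 (SE, adjusted p = 0.14, edgeR). In both genes the thiolutin libraries lay just above the DMSO libraries. With library totals they were at -0.60 (GTT1, adjusted p = 0.0629, edgeR) and -0.38 (GTT2, adjusted p = 0.34, edgeR). GTT1 ends 189 bases from the end of HYR1, its convergent neighbour on chromosome IX, and HYR1 was called higher with TMM whereas GTT1 was not. The difference between these 2 genes was not tested.

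Over the 10 genes, 8 had both thiolutin libraries above both DMSO libraries with TMM, against 33.2% of all genes tested, and 1 (GPX1) had both below, against 36.7%. With library totals, 1 (GPX2) had both above, against 3.11% of all genes, and 6 had both below, against 80.5%. GPX1 is also among these 6. It passed the filter on low counts through the DMSO libraries alone and is no support for either count of genes below. The median log2 fold change of the 10 on that scale was -0.46, and that of all genes -0.99. The 10 genes together held 0.134% and 0.133% of the counts on protein-coding genes with thiolutin, against 0.0839% and 0.0876% with DMSO. Of the counts of the 10 genes, GPX2 held 1040 of 3404 and 325 of 1251 with thiolutin. With DMSO it held 149 of 2704 and 166 of 4696. The share of the 10 genes thus includes the rise of GPX2, and a share without GPX2 was not computed.

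**Figure D3:**
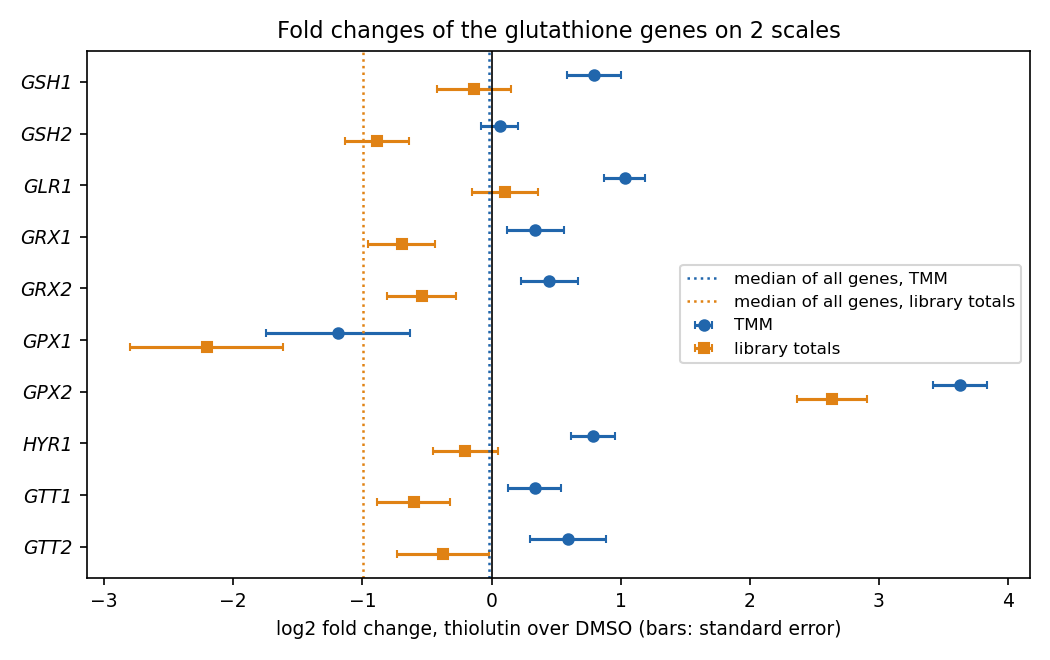
Log2 fold change of thiolutin over DMSO for each of the 10 glutathione genes, with TMM (blue circles) and with library totals (orange squares), from edgeR; bars are standard errors and dotted lines the medians of all genes tested, at -0.02 and -0.99. GPX2 lies right of 0 on both scales, at 3.63 and 2.64, as does GLR1, at 1.03 and 0.10. GPX1 lies left of 0 on both. GSH1, GSH2, GRX1, GRX2, HYR1, GTT1 and GTT2 cross 0 between the scales.

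Levels of different genes were compared by deposited TPM, which is adjusted for gene length. Most of all TPM lay on the 5.8S rRNA genes (82.3% and 82.7% with thiolutin, 81.4% and 81% with DMSO), so that the values of single mRNAs are small. With thiolutin GPX2 had the highest TPM of the 10 in both libraries, at 8.32 and 10.6, whereas in DMSO libraries a and b it had ranks 5 and 7, at 1.82 and 1.11. It made up 40.3% and 39.4% of the summed TPM of the 10 genes with thiolutin, against 8.5% and 5.65% with DMSO. GRX1 ranked second with thiolutin (3.97 ± 0.46 TPM, SD, n = 2) and first with DMSO (6.38 ± 0.898 TPM, SD, n = 2). HYR1 (2.79 ± 0.382) and GLR1 (2.52 ± 1.15) followed with thiolutin, and changed places between the 2 libraries (mean TPM ± SD, n = 2). GSH2 was second with DMSO, at 3.16 ± 0.106 TPM (SD, n = 2), beside HYR1 at 3.06 ± 0.014 TPM (SD, n = 2). GTT2, GSH1 and GPX1 held the last 3 places in both groups. With thiolutin GTT2 (0.365 ± 0.191) and GSH1 (0.33 ± 0.17) lay close together (mean TPM ± SD, n = 2). Within libraries a and b GTT2 had 0.23 and 0.5 TPM, just above GSH1 at 0.21 and 0.45 TPM. Their difference was not tested. GPX1 was at 0.055 ± 0.0071 TPM (SD, n = 2) with thiolutin and at 0.27 ± 0.085 TPM (SD, n = 2) with DMSO.

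All 10 genes have 1 exon and the length in the files equalled that of the R64 gene. Their 40 expected counts were all whole numbers, as they are where no read is divided between genes. GRX2 overlaps another annotated gene, EMI1, on the opposite strand. The counting used strand, so that reads of the 2 genes are told apart by direction.

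The other genes of glutathione metabolism moved in both directions. Of 31 listed, 28 passed the filter, and 9 of these were called higher and 3 lower with TMM (background 18.5% and 17.6%), with a median log2 fold change of 0.18. The genes called higher belonged to several steps. SFA1, which oxidizes the glutathione adduct of formaldehyde, had 17.6 ± 0.013 CPM (SD, n = 2) with thiolutin and 8.61 ± 0.832 CPM (SD, n = 2) with DMSO, a log2 fold change of 1.03 (adjusted p = 4.75e-04, edgeR). CYS3, which makes the cysteine that Gsh1 uses, was at 0.98 (adjusted p = 0.00617, edgeR), and both listed genes of cysteine supply were called. DUG1, a Cys-Gly dipeptidase of glutathione breakdown, was at 0.90 (adjusted p = 0.00159, edgeR) and GLO1, glyoxalase I, at 0.84 (adjusted p = 0.00302, edgeR). The 3 genes called lower were GRX4, a monothiol glutaredoxin of iron sensing (-1.10, adjusted p = 0.0014, edgeR), YBP1, a Yap1-binding protein (-0.97, adjusted p = 0.00428, edgeR), and ECM38, gamma-glutamyltransferase (-0.71, adjusted p = 0.0128, edgeR). ECM38 was not called with DESeq2 (adjusted p = 0.0719), without DMSO replicate a (adjusted p = 0.204, edgeR) or without DMSO replicate b (adjusted p = 0.058, edgeR). Without DMSO replicate a, 2 genes were called higher in place of 9 (6.95% of all genes), and without DMSO replicate b 5 (8.68% of all genes). Without thiolutin replicate b, 7 were called lower in place of 3 (22.1% of all genes). With library totals 0 of the 28 were called higher by edgeR and 18 lower, against 2.08% and 65.9% of all genes. At an unadjusted p under 0.05 in edgeR 0 were higher on that scale, against 123 of the 5527 genes tested. Of the 9 genes called higher with TMM, SFA1 alone stayed above 0 on that scale, at 0.08. CYS3, DUG1, GLO1, GND1, CYS4, GRX3 and GLO2 lay between -0.01 and -0.32 and were not called. GRX7, a monothiol glutaredoxin of the secretory pathway, was at 0.43 with TMM (adjusted p = 0.0429, edgeR) but at -0.54 with library totals, where it was called lower (adjusted p = 0.0489, edgeR).

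Peroxides are also reduced by the thioredoxin system, the nearest group of genes in function. Of its 11 genes, 5 were called higher with TMM and 0 lower by edgeR, against 18.5% and 17.6% of all genes. Their median log2 fold change was 0.61. DESeq2 called 0 lower, against 10.2% of all genes. At an unadjusted p under 0.05 in edgeR 1 was lower, against 1261 of the 5527 genes tested. TRR1, thioredoxin reductase, had a log2 fold change of 1.61 (adjusted p = 2.22e-05, edgeR), TRX2, a thioredoxin, 1.61 (adjusted p = 1.22e-04, edgeR), and AHP1, a peroxiredoxin, 1.25 (adjusted p = 1.49e-04, edgeR). SRX1, which repairs overoxidized peroxiredoxins, had 33 and 5 expected counts with thiolutin and 1 and 5 with DMSO, and passed the filter through the thiolutin libraries alone. SRX1 is 1 of the 5 called higher, and a gene that enters the test in this way is no support for the count. The other 4 were TRR1, TRX2, AHP1 and the peroxiredoxin gene TSA1. TSA2, another peroxiredoxin gene, was the 1 lower at an unadjusted p under 0.05 (edgeR). It had 5 and 0 expected counts with thiolutin and 14 and 36 with DMSO. TSA2 passed the filter through the DMSO libraries alone, so it is no support for that count either. With library totals TRR1 was at 0.67 (adjusted p = 0.0163, edgeR) and TRX2 at 0.62 (adjusted p = 0.0241, edgeR), and both were still called higher. Scaled to 5.8S rRNA they were at 0.73 and 0.65, and neither was called (adjusted p = 0.114 for TRR1 and 0.169 for TRX2, edgeR). The reductase of glutathione, GLR1, was at 0.10 with library totals, and the difference between the reductases was not tested.

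**Figure D4:**
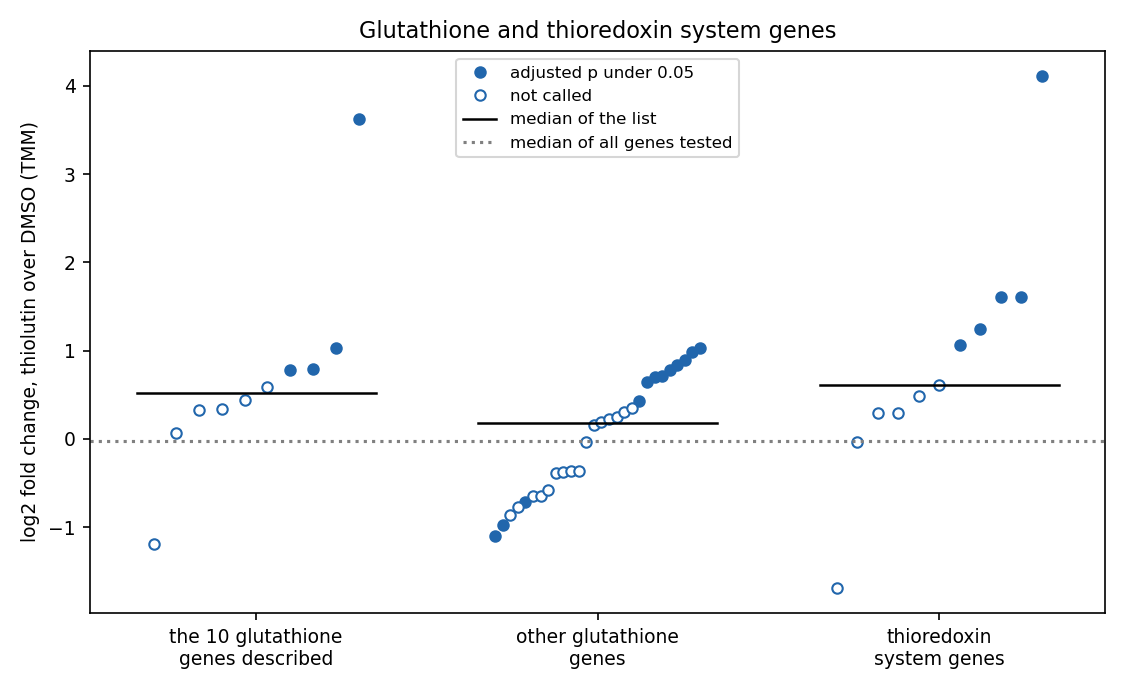
Log2 fold change of thiolutin over DMSO with TMM for the 10 glutathione genes, the 28 other glutathione genes tested and the 11 thioredoxin system genes; filled points have an adjusted p under 0.05 in edgeR, solid lines are list medians (0.52, 0.18 and 0.61) and the dotted line is the median of all genes tested (-0.02). GPX2 stands at 3.63 above the other 9 of its list, of which the next is GLR1 at 1.03.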

How the data were processed

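Total RNA of 4 libraries, depleted of large rRNA, was sequenced by the authors, who mapped single-end, stranded reads with STAR 2.7.3a to sacCer3 (the R64 assembly, per the labels) and ran RSEM 1.3.1. The deposited expected counts are estimated reads per gene, with reads that map to several genes divided between them. The deposited TPM values are adjusted for gene length and carry no spike-in scaling. The deposited FPKM column was left out.

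Here, expected counts were rounded to whole numbers (ties up). Genes were kept by filterByExpr (minimum count 10) and compared with edgeR 4.0.16 (TMM, quasi-likelihood test, Benjamini-Hochberg adjustment over 5527 genes, R 4.3.3). Standard errors (SE) were taken as the absolute log2 fold change over the square root of F. Alternatives used DESeq2 1.42.0 and limma 3.58.1 on log2(TPM + 0.1) or log2(TPM + 1). The libraries of a group differed beyond counting noise in a chi-square test of their counts, rRNA included. The chi-square over its degrees of freedom was 159 for thiolutin and 30.8 for DMSO. Such a test cannot show whether the libraries came from separate cultures. The fits were also run on counts simulated from the fitted model, with few genes changed, equally up and down. Such a simulation does not show how the fits perform where the median of all genes shifts, as with library totals here. The 10 genes were all named; from the other lists, up to 4 genes called in each direction with the largest change. GRX7, TSA1, the other genes called higher and TSA2 were named after their values were seen. The 10 genes and all lists were chosen with earlier results of these data known.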

Additional observations from a re-analysis of the deposited data

How the results depend on the processing

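With 2 libraries a group and as few as 2 counts for GPX1, small changes could not be resolved. Against 4 of the 10 genes called higher and 0 lower with TMM, scaling to library totals gave 1 and 3, and scaling to 5.8S rRNA 1 and 1. Using limma on log2(TPM + 0.1) gave 1 and 1, and on log2(TPM + 1) 1 higher. Of all genes tested, 18.5% were called higher and 17.6% lower with TMM. These shares were 2.08% and 65.9% with library totals, and 1.61% and 48.5% with 5.8S rRNA. They were 1.23% and 34.6% with limma at pseudocount 0.1, and 0.85% and 22.1% at pseudocount 1. The 1 lower gene on 5.8S rRNA and with limma was GPX1. It passed the filter on low counts through the DMSO libraries alone and is no support for these counts. The threshold of 1e-05 in the quasi-likelihood test also gave 1 higher (0.796% of all genes). With 1 library left out, log2 fold changes lay between 3.33 and 3.92 for GPX2 and between 0.85 and 1.19 for GLR1. Those of GSH1 lay between 0.56 and 1.06, and those of HYR1 between 0.57 and 0.90. The lone library of a group was then assumed to vary like the other group. In each fit GPX2 was called higher. For the other glutathione genes (9 and 3), library totals gave 0 and 18, and 5.8S rRNA 0 and 11. Limma gave 0 and 10 (pseudocount 0.1) or 0 and 6 (pseudocount 1), beside the shares of all genes above. No filter gave 6 lower (16.9% of all genes) and at least 50 counts on average 6 lower (22.3%). The likelihood ratio test gave 5 lower (20.4%). With 1 library left out they ranged from 2 to 10 higher and from 2 to 7 lower. For the thioredoxin system (5 and 0), library totals gave 3 and 4, 5.8S rRNA 1 and 2, and limma 1 and 2 or 1 and 1. The likelihood ratio test gave 1 lower (20.4% of all genes). SRX1 was the 1 higher on 5.8S rRNA and with limma at pseudocount 0.1. TSA2 was the 1 lower in the likelihood ratio test. Each passed the filter on low counts through 1 group alone, so they are no support for these counts. With 1 library left out, TRR1 lay between 1.57 and 1.63 and TRX2 between 1.28 and 1.83. With library totals the median over the genes tested lay at -0.99, and with 5.8S rRNA at -0.95. With limma it lay at -0.66 (pseudocount 0.1) and -0.23 (pseudocount 1), against -0.02 with TMM. GRX4, YBP1 and ECM38 were already called lower with TMM (edgeR). The part of this shift in the lower values of single genes was not tested.

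Among the 10 genes and the other genes named by the rule on size of change, the signs that turned were the following, in the order library totals, 5.8S rRNA, limma with pseudocount 0.1 and limma with pseudocount 1. GSH1 was at -0.14, -0.043, -0.042 and -0.0005. GSH2 was at -0.88, -0.82, -0.79 and -0.57. GRX1 was at -0.69, -0.70, -0.67 and -0.57, and between -0.22 and 0.63 with 1 library left out. GRX2 was at -0.54, -0.51, -0.43 and -0.29, and HYR1 at -0.20, -0.16, -0.14 and -0.10. GTT1 was at -0.60, -0.51, -0.46 and -0.24, and GTT2 at -0.38, -0.32, -0.19 and -0.053. GLO1 was at -0.085, -0.0016, -0.059 and -0.036. With library totals CYS3 was at -0.011 and DUG1 at -0.058.

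The letters a and b are not said to mark a shared batch, and the a minus b differences of the groups correlated by 0.028 over genes. With the replicate block 4 of the 10 genes were called higher (19.3% of all genes), and these were GPX2, GLR1, HYR1 and GSH1.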
